A study of Homo sapiens with 5 samples.

Results

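STEAP3, the ferritin chains and 7 further genes of iron handling were followed across 5 RNA-seq libraries of the human cell line TOV21G, which is established from an ovarian clear cell carcinoma. The 10 genes were taken by symbol from a gene table of 28442 rows, and each symbol matched 1 row. The list was selected on earlier results of these libraries, in which STEAP3 had one of the largest folds of ACY1215 over vehicle. Its values are therefore given as a description and with no test. The other 9 genes were listed with it for their part in iron handling.

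The series asked how RNA differs when HDAC6, a mainly cytoplasmic deacetylase of tubulin and other proteins, is repressed. Its title ties this question to ovarian cancers with mutated ARID1A, a chromatin remodelling subunit. HDAC6 was repressed with a hairpin RNA (shHDAC6) or with the inhibitor ACY1215 or CAY10603, with a control hairpin (shControl) as control of the first and drug vehicle as control of the others. All 5 treatments were given to TOV21G cells, and each has 1 library. The hairpins came in viruses that carry puromycin resistance, and infected cells were selected with puromycin, a step the labels do not give for the drug treatments. The labels name a pair of HDAC6 hairpins and do not say which one this library carries, and they give neither doses nor times. A difference between single libraries can also be a difference between cultures, and the spread between cultures was not measured.

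Total counts were 43498805 to 57442767 per library, lowest in vehicle. Gene rows with a count numbered 18719 in shHDAC6 and 18571 in shControl. They numbered 21031 in ACY1215, 21265 in CAY10603 and 22189 in vehicle. The part of this difference in the results was not tested. The HDAC6 transcript stood at 29.2 CPM (a count scaled to library size) in shHDAC6, against 48.0 CPM in shControl. It stood at 33.2 CPM in ACY1215 and 48.2 CPM in CAY10603, against 51.1 CPM in vehicle. Of the line's markers, KRT18 ranged from 213 to 282 CPM over the 5 libraries, while NAPSA stayed at or under 0.40 CPM. Of the blood cell markers that handle much iron, HBA2 was at 0 counts in every library and HBA1, HBB and ALAS2 were each at or near 0. The summed level was 8.26 to 10.2 CPM for 7 erythroid markers, mostly EPOR, 2.87 to 6.19 CPM for 7 leukocyte markers and 0.27 to 0.52 CPM for 4 endothelial markers. Of 6 fibroblast markers it was 24.9 CPM in shHDAC6, against 27.0 CPM in shControl, and 37.6 CPM in ACY1215 and 36.9 CPM in CAY10603, against 26.5 CPM in vehicle. Most of this sum was COL1A2, at 31.7 CPM in ACY1215 and 33.7 CPM in CAY10603, against 23.0 CPM in vehicle. COL3A1, PDGFRB, DCN and LUM were each at or under 0.614 CPM in every library. The part of these markers in the results was not tested.

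Cells take up iron bound to transferrin through the transferrin receptor. In the endosome the iron is reduced by STEAP3 and carried to the cytosol by the transporter SLC11A2. Iron that is not used is stored in ferritin, a shell of heavy (FTH1) and light (FTL) chains, or leaves the cell through ferroportin (SLC40A1). Iron regulatory proteins bind a hairpin in the RNA, the iron responsive element, when iron is scarce. Bound near the start of a ferritin or ferroportin message they block its translation, and bound near the end of the TFRC message they protect it from decay. These effects act on translation or on RNA stability, and protein was not measured here.

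The hairpins themselves are shown because they separate the messages that this system holds back from the one that it protects. A search of the untranslated regions (UTRs) of coding transcripts in GENCODE release 29, which is on GRCh38, found 7 of them in 4 of the 10 genes. The search was for a loop of CAGTGN on the transcript strand, with N any base but G. The loop had to sit between 5 bases on each side that pair with each other (G with T allowed), with a C just before the pairing bases. Such an element was found in the 5′ UTR of 0.0967% and in the 3′ UTR of 0.514% of 19652 coding genes, whose UTRs differ in length. Sequences are written 5′ to 3′ as DNA, with the 6 bases of the loop in capitals.
FTH1, 5′ UTR, chr11:61967575-61967601, minus strand: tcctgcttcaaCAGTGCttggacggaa
FTL, 5′ UTR, chr19:48965336-48965362, plus strand: tcttgcttcaaCAGTGTttggacggaa
SLC40A1, 5′ UTR, chr2:189580662-189580688, minus strand: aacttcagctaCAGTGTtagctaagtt
TFRC, 3′ UTR, element 1, chr3:196050980-196051006, minus strand: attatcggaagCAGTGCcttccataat
TFRC, 3′ UTR, element 2, chr3:196050576-196050602, minus strand: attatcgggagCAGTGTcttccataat
TFRC, 3′ UTR, element 3, chr3:196050511-196050537, minus strand: tgtatcggagaCAGTGAtctccatatg
TFRC, 3′ UTR, element 4, chr3:196050464-196050490, minus strand: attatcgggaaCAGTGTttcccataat
By these rules the ferritin and ferroportin messages hold 1 element each, ahead of the coding sequence, and TFRC holds 4 behind it. The pairing bases on both sides of the loop are the same in FTH1 and FTL. In SLC11A2 and the remaining genes no stretch met these letters and pairing rules. The search says nothing about other forms of the element in any of the 10 genes.

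Levels of different genes were set side by side only per transcript length, in the authors' FPKM (read fragments scaled to transcript length and library size). FTL was the highest, at 594 to 711 FPKM over the 5 libraries, and FTH1 followed at 351 to 569 FPKM. NCOA4 (52.3 to 59.6 FPKM), TFRC (46.2 to 58.0 FPKM) and FBXL5 (38.1 to 55.9 FPKM) came next, and each of them overlapped its neighbour in this order. ACO1 was at 29.8 to 34.4 FPKM, SLC11A2 at 16.2 to 18.7 FPKM and IREB2 at 12.65 to 14.03 FPKM. STEAP3 was low, at 0.76 to 3.89 FPKM, and SLC40A1 was the lowest, at 0.09 to 0.52 FPKM. Apart from the group of NCOA4, TFRC and FBXL5, the ranges of neighbours in this order did not overlap.

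**Figure D1:**
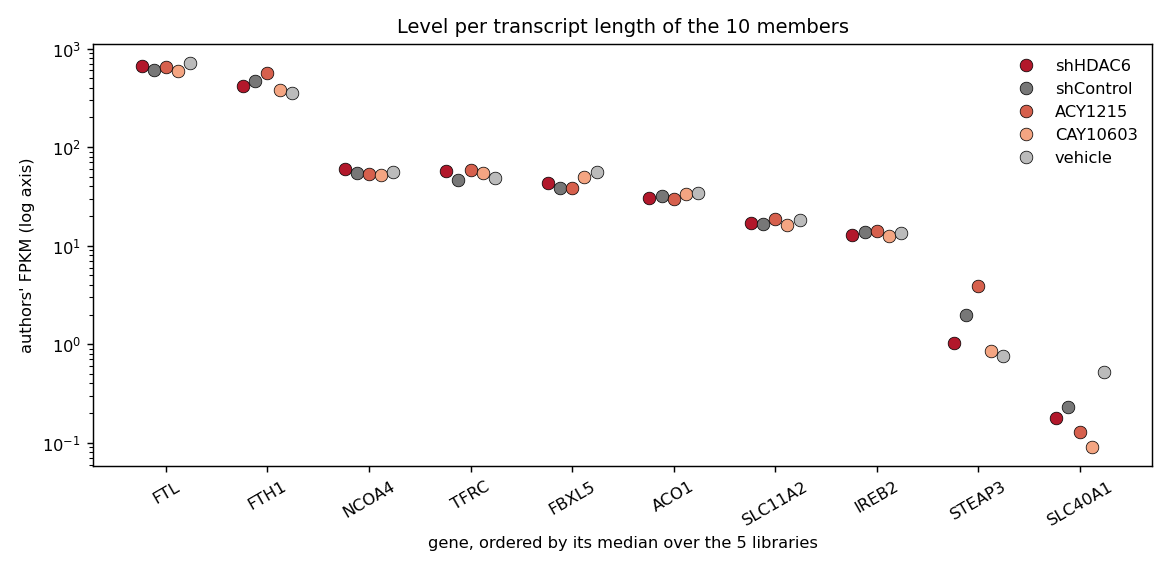
Authors' FPKM (log axis) of the 10 genes in each of the 5 libraries, 1 point per library, with genes ordered by their median. FTL and FTH1 lie above 351 FPKM in every library, and STEAP3 and SLC40A1 lie below 4 FPKM.

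STEAP3, the reductase of endosomal iron and a described target of p53, differed most between the libraries. It stood at 3.85 CPM (counting interval 3.34 to 4.42) in shHDAC6, against 7.61 CPM (6.91 to 8.35) in shControl. It stood at 15.2 CPM (14.2 to 16.3) in ACY1215 and 3.25 CPM (2.76 to 3.80) in CAY10603, against 2.78 CPM (2.31 to 3.32) in vehicle. ACY1215 was the highest library and shControl the second, and CAY10603 and vehicle had overlapping counting intervals. The log2 fold was -0.97 for shHDAC6 over shControl, 2.44 for ACY1215 over vehicle and 0.22 for CAY10603 over vehicle, with counting intervals of -1.23 to -0.74, 2.18 to 2.74 and -0.12 to 0.58. All counting intervals here are at 95%, and they hold no spread between cultures. Among the 10741 genes whose CPM averaged 5 or more across all libraries, the ACY1215 fold ranked 5 from the top.

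The controls themselves differed in STEAP3, by a log2 fold of 1.44 (1.16 to 1.75) for shControl over vehicle, which ranked 10 from the top of the same 10741 genes. With vehicle in place of shControl the shHDAC6 fold turned to 0.46. With shControl in place of vehicle the ACY1215 fold was 0.998 and the CAY10603 fold -1.22. ACY1215 was above every other library, and the order of shHDAC6 against a control depended on which control was used. STEAP3 is also near the 5 CPM floor, with a mean of 6.54 CPM and only 2 of 5 libraries at or above 5 CPM. It passed that floor through the libraries in which it was high. In these bulk libraries fewer cells with a transcript and less of it per cell cannot be told apart.

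Of 8 p53 target genes set beside STEAP3, 7 were at least 1.5-fold higher in shControl than in vehicle, and their median log2 fold was 0.79. CDKN1A, an inhibitor of cyclin-dependent kinases, stood at 330 CPM in shControl, against 154 CPM in vehicle, and MDM2, the ubiquitin ligase of p53, at 759 CPM, against 327 CPM. The share of all genes at least 1.5-fold apart between these controls was 6.73%. For shHDAC6 over shControl 0 of the 8 genes had a positive fold, with a median of -0.22, against 0.00 for all genes. Over all genes the share of positive folds was not counted. MDM2, at -0.68, and ZMAT3, another of the 8, at -0.71 were the 2 at least 1.5-fold lower there. Of all genes 5.02% were 1.5-fold apart in either direction in this pair. CDKN1A, at -0.02, and FDXR, also of the 8, at -0.004 were near 0. For ACY1215 over vehicle the median was 0.06, with CDKN1A at 206 CPM in ACY1215 against 154 CPM in vehicle (log2 fold 0.42) and MDM2 at 0.09. The part of p53 target genes in the STEAP3 values was not tested.

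**Figure D2:**
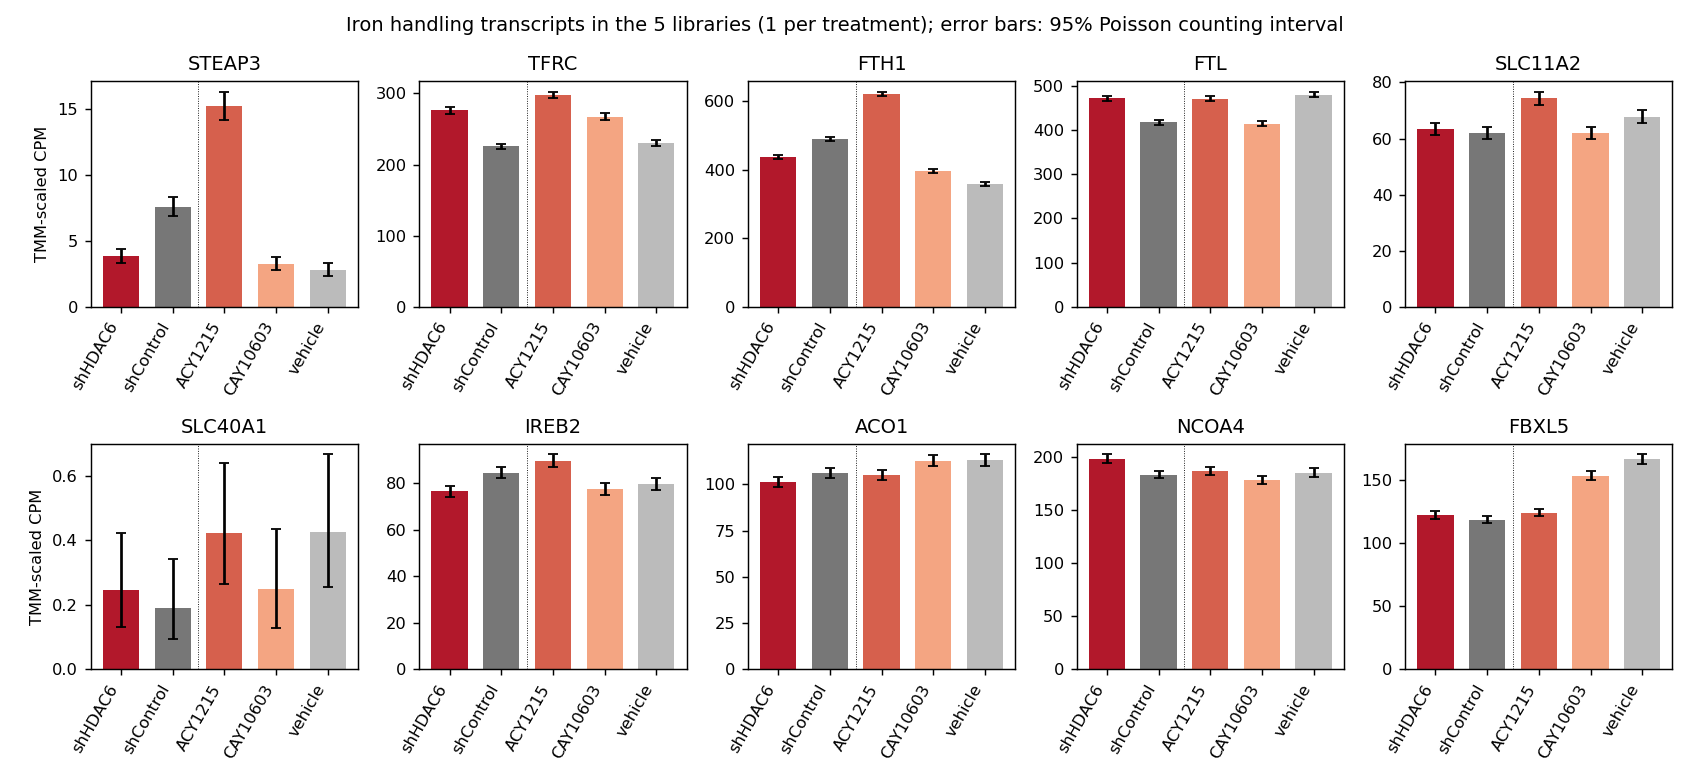
CPM of the 10 genes in the 5 libraries, 1 bar per library, each axis starting at 0, with the 95% Poisson counting interval as error bar. A dotted line parts the hairpin libraries from the drug libraries. STEAP3 is highest in ACY1215 (15.2 CPM), and TFRC is higher in all 3 interventions than in either control.

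TFRC, the transferrin receptor, was higher in every HDAC6 intervention than in either control. It stood at 276 CPM in shHDAC6, against 226 CPM in shControl, and at 298 CPM in ACY1215 and 267 CPM in CAY10603, against 230 CPM in vehicle. The log2 folds were 0.29 (0.26 to 0.33), 0.37 (0.34 to 0.41) and 0.22 (0.18 to 0.26), between 1.16- and 1.29-fold. The controls were close to each other, with a log2 fold of -0.03 (-0.06 to 0.01) for shControl over vehicle, and the folds stayed at 0.25 to 0.40 when the controls were exchanged. TFRC was the only one of the 9 genes at the floor with all 3 interventions on 1 side of both controls, and 9.5% of the 10741 genes had such a pattern, 529 of them on the higher side. In the fit over all libraries its log2 fold was 0.30 with a standard error of 0.14 (edgeR quasi-likelihood test, adjusted p = 1.00). The difference therefore did not pass the test across 3 interventions and 2 controls.

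SLC11A2, which moves ferrous iron out of the endosome, stood at 63.5 CPM in shHDAC6, against 61.9 CPM in shControl. It stood at 74.3 CPM in ACY1215 and 62.0 CPM in CAY10603, against 67.9 CPM in vehicle. Its log2 folds of 0.04, 0.13 and -0.13 were small and of unlike sign.

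FTH1, the ferritin heavy chain that oxidises iron for storage, stood at 437 CPM in shHDAC6, against 490 CPM in shControl. It stood at 621 CPM in ACY1215 and 397 CPM in CAY10603, against 359 CPM in vehicle. FTH1 was highest in ACY1215 and lowest in vehicle, with both hairpin libraries between these. The log2 folds were -0.16 (-0.19 to -0.14) for shHDAC6, 0.79 (0.76 to 0.82) for ACY1215 and 0.15 (0.12 to 0.18) for CAY10603. The controls differed by 0.45 (0.42 to 0.48), shControl over vehicle. With the controls exchanged the folds were 0.29 for shHDAC6, 0.34 for ACY1215 and -0.30 for CAY10603, so that ACY1215 alone kept its sign.

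FTL, the ferritin light chain that helps to form the iron core, stood at 471 CPM in shHDAC6, against 417 CPM in shControl. It stood at 471 CPM in ACY1215 and 414 CPM in CAY10603, against 479 CPM in vehicle. Its log2 folds were 0.18 (0.15 to 0.20), -0.03 (-0.05 to -0.00) and -0.21 (-0.24 to -0.18), and for shControl over vehicle it had -0.20 (-0.23 to -0.18). With the controls exchanged they were -0.02 for shHDAC6, 0.18 for ACY1215 and -0.01 for CAY10603, and those of shHDAC6 and ACY1215 were of the opposite sign. The spread of FTL over the 5 libraries was 1.16-fold, against 1.73-fold for FTH1.

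The ratio of the heavy to the light chain needs no scaling between libraries. In FPKM it was 0.623 in shHDAC6, against 0.776 in shControl, and 0.869 in ACY1215 and 0.633 in CAY10603, against 0.494 in vehicle. The ratio was therefore highest in ACY1215 and lowest in vehicle, while the hairpin pair ran the other way from both drug pairs. FTH1 and FTL have copies elsewhere in the genome that can share reads. The table lists 4 rows of such relatives, FTH1P3, FTH1P18, FTLP10 and FTHL17, with at most 12 counts in any library, and how the authors treated reads that fit several copies is not given in the sources used here.

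SLC40A1, or ferroportin, the only known cellular exporter of iron in mammals, was hardly detected. It had 13 counts in shHDAC6, against 11 in shControl, and 22 in ACY1215 and 12 in CAY10603, against 19 in vehicle. No difference from its own control was detectable at this depth for any intervention, with counting intervals of the log2 fold of -0.91 to 1.67 for shHDAC6, -0.97 to 0.95 for ACY1215 and -1.95 to 0.34 for CAY10603. In FPKM it was 0.13 in ACY1215, against 0.52 in vehicle, a wider gap than in CPM, where ACY1215 had 0.422 and vehicle 0.426. It did not pass the floor, entered no count of genes by fold and was not in the reported fit.

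**Figure D3:**
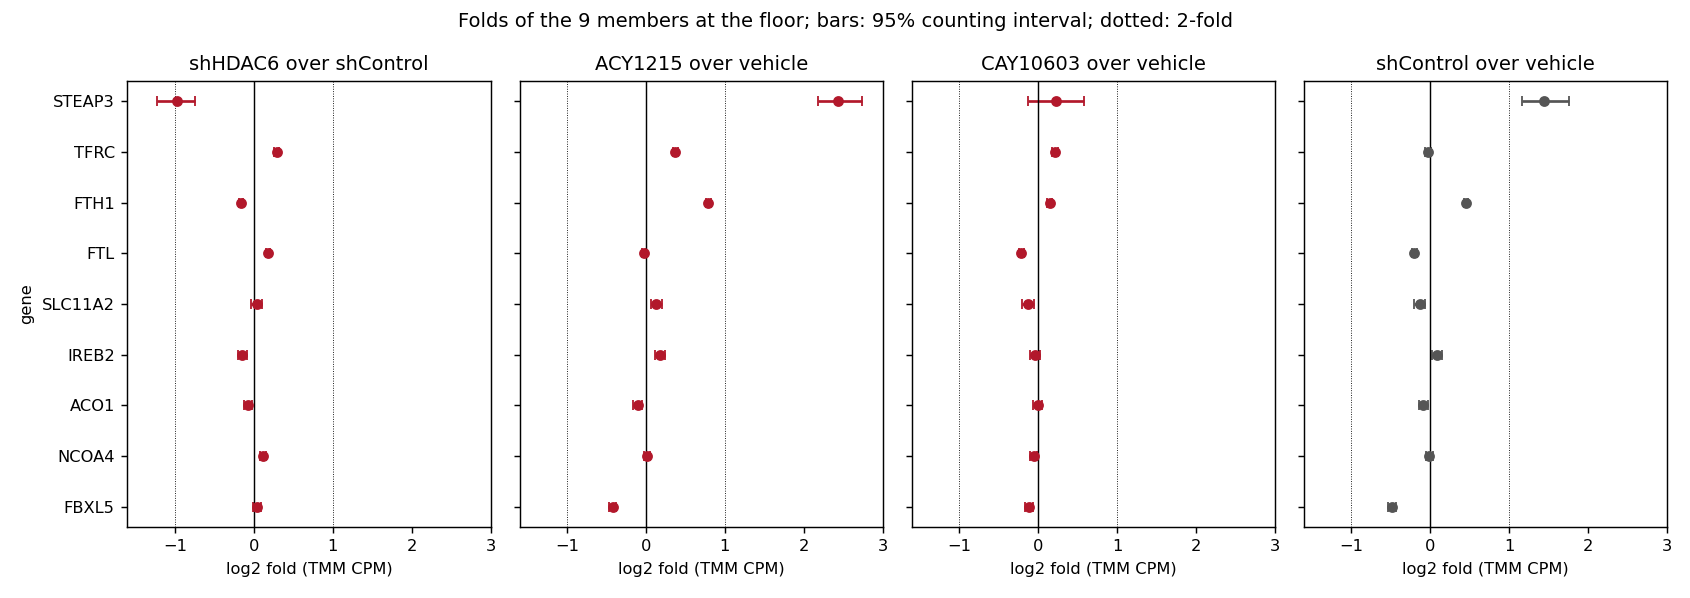
Log2 folds of the 9 genes at the floor for the 3 interventions over their own control and for shControl over vehicle, with 95% counting intervals and dotted lines at 2-fold. STEAP3 is the only gene past 2-fold, in ACY1215 over vehicle (2.44) and in shControl over vehicle (1.44).

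The iron regulatory proteins themselves spanned narrow ranges. IREB2, iron regulatory protein 2, stood at 76.5 CPM in shHDAC6, against 84.5 CPM in shControl, and at 89.6 CPM in ACY1215 and 77.4 CPM in CAY10603, against 79.5 CPM in vehicle. ACO1, the cytosolic aconitase that becomes iron regulatory protein 1 when it lacks its iron-sulphur cluster, stood at 101 CPM in shHDAC6, against 106 CPM in shControl. It stood at 105 CPM in ACY1215 and 113 CPM in CAY10603, against 113 CPM in vehicle. Over the 5 libraries IREB2 spanned 1.17-fold and ACO1 1.12-fold.

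FBXL5, the ubiquitin ligase subunit that binds iron and marks IREB2 for degradation, had another order. It stood at 123 CPM in shHDAC6, against 119 CPM in shControl, and at 124 CPM in ACY1215 and 154 CPM in CAY10603, against 167 CPM in vehicle. Vehicle and CAY10603 were high, and ACY1215 was near both hairpin libraries. The log2 folds were 0.05 (-0.00 to 0.10), -0.42 (-0.47 to -0.37) and -0.12 (-0.16 to -0.07). For shControl over vehicle the fold was -0.49 (-0.54 to -0.44). ACY1215 thus lay below vehicle and, by 0.07, above shControl.

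NCOA4, the receptor that delivers ferritin to the lysosome for iron release, stood at 198 CPM in shHDAC6, against 183 CPM in shControl. It stood at 187 CPM in ACY1215 and 178 CPM in CAY10603, against 185 CPM in vehicle. Its 5 libraries spanned 1.11-fold, with shHDAC6 the highest.

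At a threshold of 2-fold, 0 of the 9 genes at the floor were apart in shHDAC6 and shControl, where 0.689% of all genes were. In ACY1215 and vehicle it was STEAP3 alone, where 4.7% of all genes were, and in CAY10603 and vehicle 0 of 9, where 0.27% were. Between shControl and vehicle it was again STEAP3 alone, where 1.42% of all genes were. STEAP3 was listed for its ACY1215 fold and passed the floor through the libraries in which it was high. Its entries in these counts are therefore a description. None of the other 8 genes was 2-fold apart in any of these pairs. At 1.5-fold the genes were STEAP3 for shHDAC6 (5.02% of all genes), STEAP3 and FTH1 for ACY1215 (13.6%) and none for CAY10603 (1.04%). The median log2 fold of the 9 genes, STEAP3 included, was 0.04 for shHDAC6, 0.13 for ACY1215 and -0.04 for CAY10603. It was 0.00, -0.00 and 0.01 for all 10741 genes.

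In the fit of the 3 interventions against the 2 controls, with hairpin or drug as a covariate, 0 of the 8 tested genes other than STEAP3 passed an adjusted p of 0.05 by edgeR, and 0% of 13449 genes did. At an unadjusted p under 0.05 the count was also 0 of these 8 by edgeR, DESeq2 and limma-voom, and 1 of 8, TFRC, by edgeR with no covariate. For all 13449 genes these unadjusted counts were 100, 112 and 122, and 69 by edgeR with no covariate. Of all genes 0 were called by any of the 3 tools. The fitted log2 fold and its standard error were 0.21 and 0.26 for FTH1, -0.13 and 0.15 for FBXL5, and 0.01 and 0.16 for FTL. Without ACY1215 4 genes were called by edgeR, none of them among the 8 tested members other than STEAP3. The fit treats differences between the interventions as spread.

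**Figure D4:**
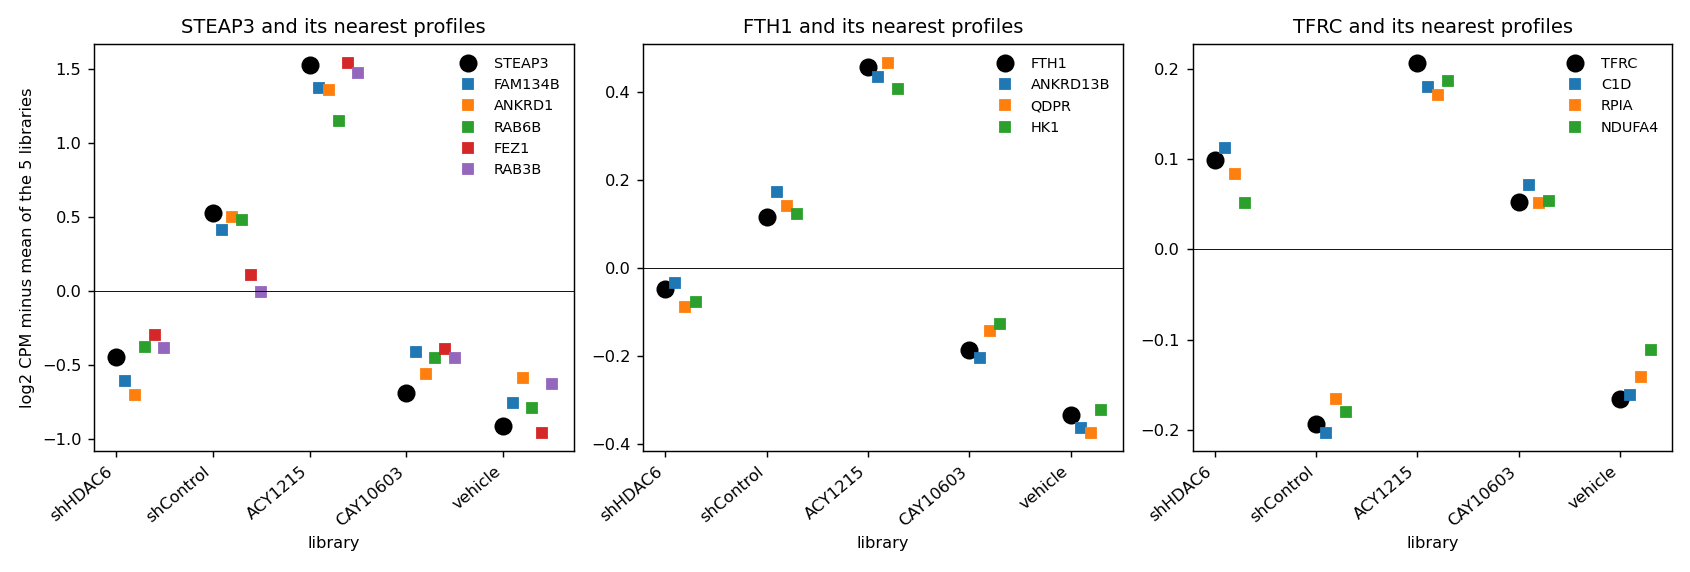
Log2 CPM minus the mean of the 5 libraries for STEAP3, FTH1 and TFRC (black circles) and for the genes with the nearest profiles (coloured squares), 1 mark per gene and library. STEAP3 and its 5 nearest genes are highest in ACY1215, and TFRC and its 3 nearest lie below 0 in both controls. The nearest genes were picked for likeness in these same libraries.

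The genes with the profile most like that of STEAP3 were found by the Euclidean distance between centred log2 CPM over the 5 libraries. They were FAM134B (distance 0.40), a reticulophagy receptor, ANKRD1 (0.46), a nuclear cofactor responsive to YAP, the Rab GTPase RAB6B (0.46), FEZ1 (0.54), a kinesin adaptor, and RAB3B (0.65), a GTPase of secretory vesicles. FAM134B stood at 3.41 CPM in shHDAC6, against 6.98 CPM in shControl, and at 13.6 CPM in ACY1215 and 3.91 CPM in CAY10603, against 3.07 CPM in vehicle. ANKRD1 differed by a log2 fold of -1.20 in shHDAC6 over shControl, 1.95 in ACY1215 over vehicle and 0.03 in CAY10603 over vehicle. For FTH1 the nearest were ANKRD13B (0.07), QDPR (0.08), a dihydropteridine reductase, and HK1 (0.08), a hexokinase. HK1 stood at 280 CPM in shHDAC6, against 321 CPM in shControl, and at 391 CPM in ACY1215 and 270 CPM in CAY10603, against 236 CPM in vehicle. For TFRC they were C1D (0.04), RPIA (0.05), an enzyme of the pentose phosphate pathway, and NDUFA4 (0.08), a mitochondrial respiratory subunit. These searches ran among genes whose CPM averaged 5 or more. FAM134B, ANKRD1, RAB6B and FEZ1, like STEAP3, reached 5 CPM in only 2 of 5 libraries, ACY1215 and shControl. They passed that floor through the libraries in which they were high. With 5 libraries many profiles lie close together, and likeness is given as a description.

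A further 82 genes of iron uptake, export, iron-sulphur cluster assembly and heme metabolism were looked up, of which 63 were at the floor. Of the 82 genes 67 entered the fit, and 0 passed by edgeR, DESeq2 or limma-voom, with 0 at an unadjusted p under 0.05 by edgeR. For ACY1215 over vehicle 4 of the 63 were at least 1.5-fold higher and 2 at least 1.5-fold lower. For shHDAC6 over shControl 4 were higher and 2 lower, and for CAY10603 over vehicle 0 were either. These are 9.52%, 9.52% and 0% of the list, against 13.6%, 5.02% and 1.04% of all genes. The median log2 folds were 0.05, -0.01 and 0.01. With total counts 9 list genes were past 1.5-fold for ACY1215 over vehicle, with a floor of 1 CPM 8, in FPKM 7 and with RLE size factors 5, in place of 6. Under total counts and in FPKM the median of all genes was -0.10 for this pair, and the floor of 1 CPM lets in further list genes. The share of all genes past 1.5-fold was not counted under these settings.

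Among 7 other genes of transferrin uptake and iron reduction at the floor, 1 had a positive fold in shHDAC6 over shControl (median -0.18). The count was 5 in ACY1215 over vehicle (median 0.48) and 6 in CAY10603 over vehicle (median 0.03). Folds as small as 3e-05 entered the CAY10603 count, and the share of positive folds over all genes was not counted. The medians of all genes were 0.00, -0.00 and 0.01 for these pairs. CYBRD1, a ferric reductase of the plasma membrane, stood at 9.14 CPM in shHDAC6, against 8.42 CPM in shControl, and at 32.2 CPM in ACY1215 and 11.2 CPM in CAY10603, against 10.99 CPM in vehicle. Its ACY1215 fold was 1.55 (1.40 to 1.70) on the log2 scale, and the other 4 libraries lay between 8.42 and 11.2 CPM. STEAP2, a metalloreductase of the STEAP3 family, had a log2 fold of 0.73 (0.63 to 0.83), at 43.6 CPM in ACY1215 against 26.3 CPM in vehicle. STEAP1, the family member that lacks the NADPH-binding domain, had 0.48, at 17.1 CPM against 12.3 CPM. For CAY10603 over vehicle CYBRD1 had 0.03 and STEAP2 0.21.

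NEO1, a co-receptor in the signalling that controls hepcidin in the liver, had a log2 fold of 1.73 (1.53 to 1.94) in ACY1215 over vehicle, at 19.1 CPM against 5.74 CPM. HAMP, the gene of hepcidin itself, had 0 counts in all 5 libraries. HMOX1, the heme oxygenase that frees iron from heme, stood at 13.3 CPM in shHDAC6, against 12.9 CPM in shControl, and at 17.3 CPM in ACY1215 and 8.40 CPM in CAY10603, against 7.87 CPM in vehicle. Its ACY1215 fold was 1.14 (0.96 to 1.32), and shControl over vehicle had 0.71 (0.53 to 0.90). Of the 13 heme genes 11 had a positive ACY1215 fold, with a median of 0.16, against -0.00 for all genes. For shControl over vehicle 12 were positive, with 0.17 against 0.01, and for shHDAC6 4, with -0.23 against 0.00. The share of positive folds over all genes was not counted. CP, or ceruloplasmin, a copper enzyme that oxidises exported iron, stood at 35.4 CPM in shHDAC6, against 56.9 CPM in shControl (log2 fold -0.69), while vehicle had 37.9 CPM.

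Iron-sulphur cluster assembly genes gave the remaining folds past 1.5-fold. In shHDAC6 over shControl NUBP2, a scaffold of cytosolic cluster assembly, had 1.22 (1.03 to 1.43), at 12.5 CPM against 5.33 CPM, while vehicle had 8.03 CPM. NARFL had 0.75, ISCA2 0.63 and NDOR1 0.61, and FDX1, a mitochondrial ferredoxin, had -0.67. In ACY1215 over vehicle NUBP1 had -0.81 and NUBP2 -0.59. The median of the 28 genes of this list at the floor was 0.03 for shHDAC6, -0.00 for ACY1215 and -0.03 for CAY10603, so that the list as a whole stood near 0. The medians of 7 iron chaperone and turnover genes were 0.01, 0.25 and 0.07, of 3 export and hepcidin genes 0.13, -0.29 and -0.09, and of 5 other messages with described iron responsive elements -0.01, 0.12 and 0.06.

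**Figure D5:**
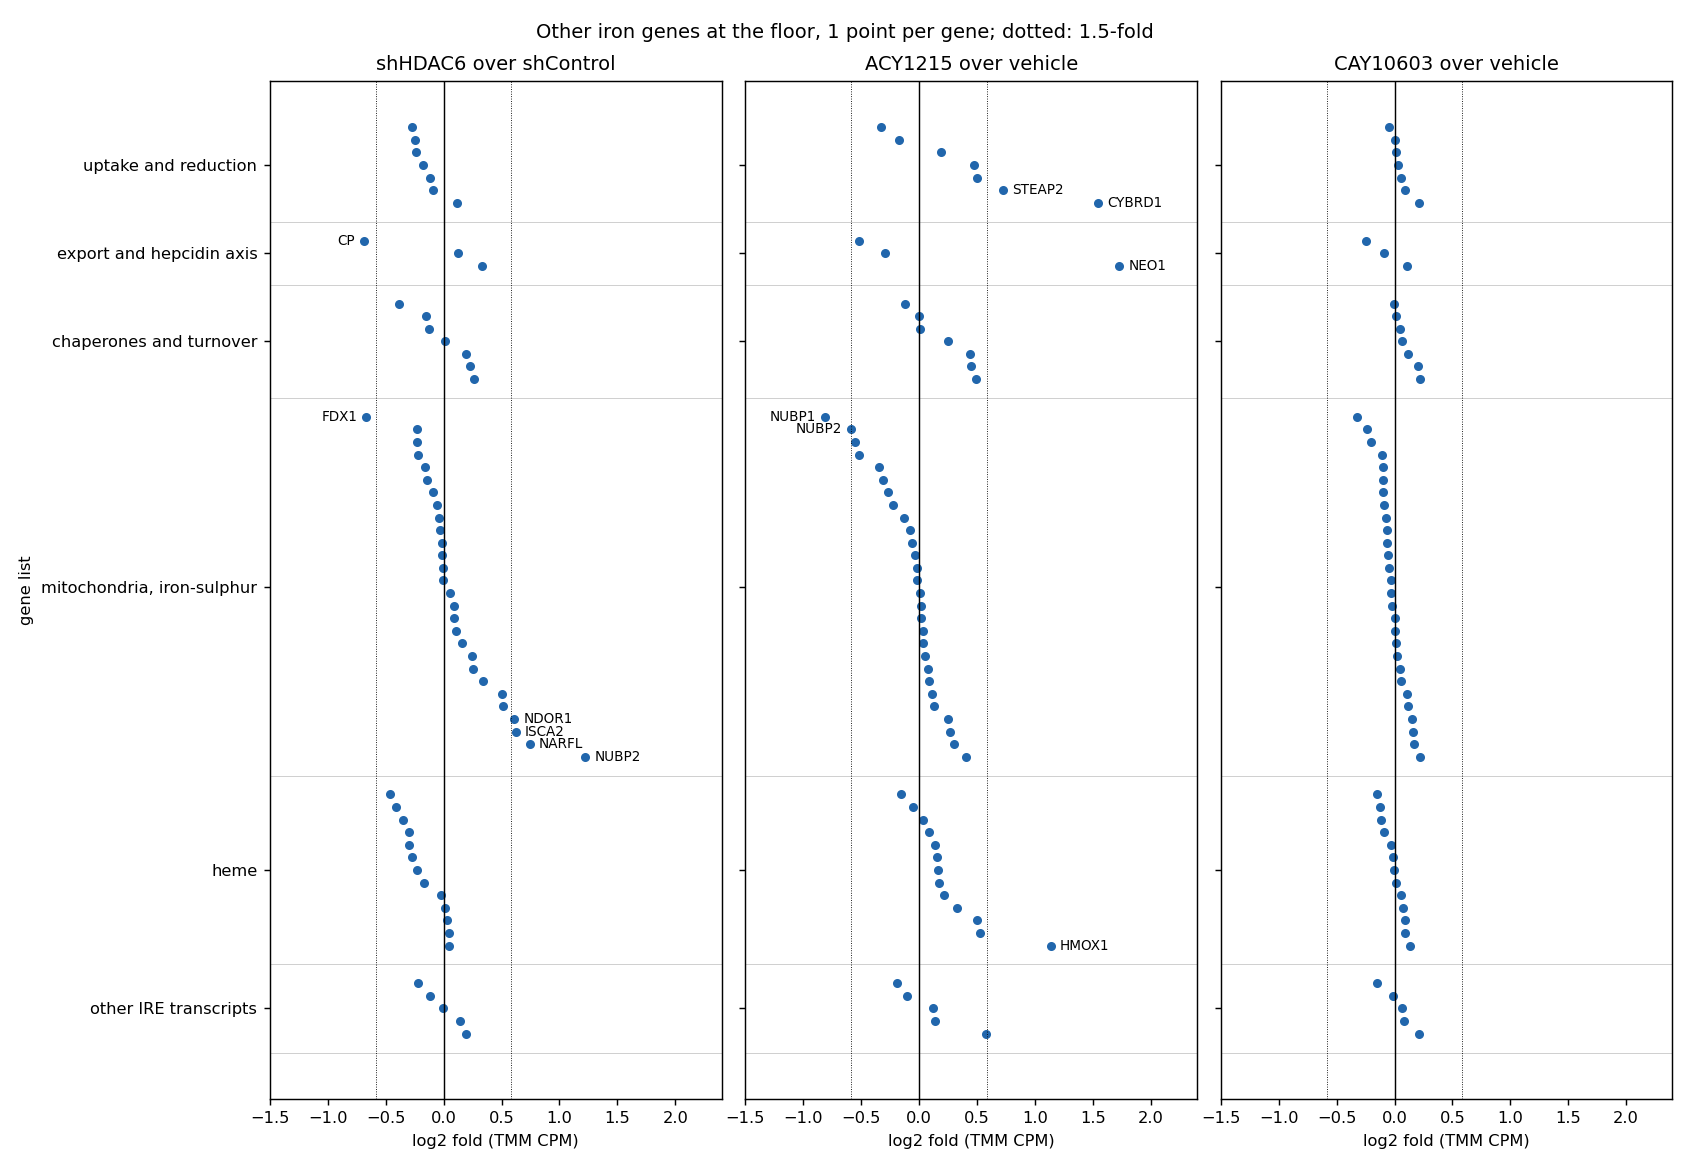
Log2 folds of the further iron genes at the floor in 6 lists, 1 point per gene, for each intervention over its control, with dotted lines at 1.5-fold and names beside the genes past it. CYBRD1 (1.55) and NEO1 (1.73) stand apart in ACY1215, NUBP2 (1.22) in shHDAC6, and no gene passes the lines in CAY10603.

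Ferritin genes are described targets of NRF2, the factor of the oxidative stress response, and 8 other NRF2 targets were set beside them. For ACY1215 over vehicle 7 of the 8 had a positive fold, with a median of 0.54, against -0.00 for all genes. Positive folds were not counted over all genes. Of the 8, 4 were at least 1.5-fold higher and 1 at least 1.5-fold lower, where 13.6% of all genes were 1.5-fold apart in either direction. NQO1, a quinone reductase, stood at 2858 CPM in ACY1215 against 1793 CPM in vehicle, and TXNRD1, a thioredoxin reductase, at 780 CPM against 398 CPM. SLC7A11, the cystine transporter, was high in vehicle, with a log2 fold of -0.86 for ACY1215, -0.81 for CAY10603 and -1.62 for shControl, each over vehicle. The medians were 0.04 for shHDAC6 and 0.06 for CAY10603, and -0.17 for shControl over vehicle, where FTH1 had 0.45. The part of these genes in the FTH1 values was not tested.

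Since neither doses nor times are known for ACY1215 and CAY10603, no test or fold of one compound against the other is given, and their values stand side by side only as levels of single libraries.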

How the data were processed

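Total RNA of TOV21G cells was isolated with Trizol and made into stranded libraries, per the labels' protocols. The deposited table holds estimated counts per gene, all whole numbers, and the authors' FPKM, headed count and FPKM per the file headers. The submitters' processing notes name RSEM 1.2.3, edgeR and hg19, with no role for each. Aligner, annotation version and strandedness of counting were not given in the sources used here. DMSO, a column heading, was taken to mean vehicle. Columns of unknown samples numbered 0, and 2 blank rows were left out.

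CPM were scaled by TMM over 13449 genes that reached 1 CPM in 2 or more libraries. Log2 folds of library pairs used a prior count of 2, carry no test, and were counted among genes whose CPM averaged 5 or more. Counting intervals are exact Poisson (levels) or exact binomial (folds), at 95%. The 3 repressed HDAC6 libraries were compared with the 2 controls by edgeR 4.0.16 (R 4.3.3), robust quasi-likelihood test, with experiment type as covariate, Benjamini-Hochberg adjustment (2 residual degrees of freedom) over all genes tested. Nothing says that libraries came from repeated cultures, so these p-values measure only the spread between them. DESeq2 1.42.0, limma-voom 3.58.1, other scalings, FPKM with a pseudocount of 0.1, exchanged controls and leaving out libraries were alternatives. The scripts were tested on simulated data.

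The members and gene lists were chosen with earlier results of these data known. Named genes were the members, iron list genes at least 1.5-fold apart in an intervention and its control, HMOX1, ferritin relatives, and the nearest profiles (5 for STEAP3, 3 each for FTH1 and TFRC). STEAP1, HAMP and the p53 and NRF2 examples were named after their values were seen. Coordinates of the printed elements are from GENCODE release 29 on GRCh38 and were not joined to the table.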

Additional observations from a re-analysis of the deposited data

Results flagged for a closer look

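Both ferritin chains ran in opposite directions in the hairpin pair and in the drug pairs, with no counting interval reaching 0, although that of FTL in ACY1215 ended at -0.00018. With RLE size factors that FTL fold was -0.020, and the interval holds no error of the scaling. FTH1 had a log2 fold of -0.16 for shHDAC6 over shControl, against 0.79 for ACY1215 and 0.15 for CAY10603 over vehicle. FTL had 0.18 for shHDAC6 over shControl, against -0.03 and -0.21 for the drugs over vehicle. The difference between the experiment types was not tested, since each pair has 1 library on each side. Both drugs share the vehicle library, and FTH1 was also higher (0.45) and FTL lower (-0.20) in shControl than in that library.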

How the results depend on the processing

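The number of genes called was 0 by edgeR as reported, with RLE size factors, with no filter on low counts and with no covariate, and 0 by DESeq2 and limma-voom. Leaving out 1 library gave 0 to 4 calls, with 3 without vehicle (control replicate 2) and 4 without ACY1215 (repressed HDAC6 replicate 2). The pooled log2 fold of TFRC ranged from 0.25 to 0.33 over all these fits. The reported fit joins each intervention to its control by experiment type, and no further pairing was possible because the labels give no replicate numbers. With vehicle in place of shControl, the shHDAC6 folds of STEAP3, FTH1 and FTL reversed to 0.46, 0.29 and -0.024. With shControl in place of vehicle, 0 members were 2-fold apart in ACY1215 and 1 in CAY10603 (STEAP3, -1.22). With it 2 iron list genes passed 1.5-fold in CAY10603, where the share of all genes was not counted. The folds of FTL and FBXL5 in ACY1215 then reversed to 0.18 and 0.067, and those of FTH1 and FBXL5 in CAY10603 to -0.30 and 0.37. The cause was not tested. Total counts in place of TMM moved the median of all genes by -0.10 in ACY1215 over vehicle, where FTH1 was then at 0.69, TFRC at 0.27 and FTL at -0.13. RLE size factors and a prior count of 0.5 left all 15 folds of STEAP3, FTH1, FTL, TFRC and FBXL5 within their counting intervals. Total counts moved 10 of these 15 folds out of their counting intervals, and FPKM moved 9. TFRC stayed above both controls by at least 0.17 on the log2 scale under total counts, RLE and FPKM. The alternatives for FBXL5, the iron list counts and the TFRC order were chosen after seeing the data. Depth limits SLC40A1, with at most 22 counts, and STEAP3, with 124 to 794.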
